A study of Mus musculus with 8 samples.

Results

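The 10 genes described here were picked because their RNA differed after Cre reached a leukemia line with floxed Lef1, although no role under Lef1, a transcription factor gene of T cell precursors, was known for them. The genes are Cym, Tceal1, 2810459M11Rik, Cd52, Cd53, Prmt7, Mbnl2 and Cntnap2, which were lower after Cre, and Rab44 and Fgfbp1, which were higher. They were read by 19 probe sets of the 45037 on the array, and 10 is their number among 18193 genes that have a name of their own there. The choice rested on the comparison of MigR1-Cre with MigR1 in the floxed line, with no stated threshold, so the values of that comparison describe how the genes were picked and are given without a test. The Lef1F/F line came from an E2a-/- mouse homozygous for Lef1 alleles with loxP sites around the DNA binding domain, and the E2a-/- line from a mouse with unmodified Lef1. Both lines are thymic T cell leukemias on an FVB/NJ background in which E2a (Tcf3), a gene of the E protein family, is deleted, and no group with intact E2a was included. Cells were transduced with MigR1-Cre, a retrovirus that produces Cre and GFP, or with MigR1, which produces GFP alone, and GFP+ cells were sorted 72 hours later. There were 2 arrays in each of 4 groups, named here Lef1F/F MigR1-Cre, Lef1F/F MigR1, E2a-/- MigR1-Cre and E2a-/- MigR1. Each genotype is a single line, so line and genotype cannot be told apart, and nothing states that the 2 arrays of a group came from separate cultures.

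The 10 genes are not known as members of a common pathway. TCF/LEF proteins bind short DNA sites and raise or lower transcription of nearby genes with partner proteins, and in T cell precursors they act from the earliest committed stages onward. Cre recombines loxP sites, so that a gene flanked by them loses the enclosed part. A line without such sites can show what the enzyme does apart from the deletion. Here that line is another leukemia, whose response to Cre need not be the same. The products are of several kinds, namely a secreted digestive protease and a secreted growth factor carrier, surface proteins of leukocytes and of neurons, enzymes and nuclear factors, and 1 protein-coding gene whose role is left out here. By the annotation of the mouse assembly GRCm38.p6 they lie on 9 chromosomes, with Cym and Cd53 both on chromosome 3. Lef1, the floxed gene, lies on chromosome 3 too, and whether position bears on the values was not tested.

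As a check of the labels, the brighter Lef1 probe set had intensities of 1903 and 1678 in Lef1F/F MigR1-Cre arrays, against 6918 and 6126 in Lef1F/F MigR1 arrays. It read 3008 and 3416 in E2a-/- MigR1-Cre arrays and 3288 and 3337 in E2a-/- MigR1 arrays. The Lef1F/F MigR1-Cre arrays were thus the lowest of all. The brightest Tcf3 probe set, which reads the E2a gene, lay between 583 and 880 in the 8 arrays. Where it lies relative to the deleted part is not known, so it checks nothing. Median intensities were 88.9 to 91.0, and arrays of the Lef1F/F line differed more between replicates (SD of the log2 difference 0.185 for MigR1-Cre and 0.182 for MigR1) than those of the E2a-/- line (0.119 for MigR1-Cre and 0.107 for MigR1). For Lef1F/F MigR1 arrays and for E2a-/- MigR1-Cre arrays the vector field of the labels contradicts the titles, and the titles were used. Of 10 measured T cell markers, 9 had a mean above 89.6, the median of the table, among them Cd3e, Cd3g and Cd3d, while Cd5 lay below it in each group. Of 34 measured markers of B, myeloid, mast, erythroid, natural killer, stromal and epithelial cells, 0 were called with Cre in either line (limma, adjusted p under 0.05), where 0.167% of the table was called in the Lef1F/F line and 0% in the E2a-/- line. Summed intensities of the stromal and endothelial list were 675 to 689 in Lef1F/F MigR1-Cre and 748 to 784 in Lef1F/F MigR1 arrays, with Pdgfrb at means of 174 in Lef1F/F MigR1-Cre and 229 in Lef1F/F MigR1 arrays. Sums of the myeloid list were 627 to 641 in Lef1F/F MigR1-Cre and 608.5 to 617.8 in Lef1F/F MigR1 arrays, and those of the natural killer list 186.4 to 186.5 in Lef1F/F MigR1-Cre and 183.3 to 183.6 in Lef1F/F MigR1 arrays. The sums of the other 4 such lists overlapped between these groups. At single probe sets, both MigR1-Cre arrays were below both MigR1 arrays in 13.7% of the table and above them in 15.4%. No such share was counted for sums. Means above the table median were found for 3 of 6 stromal and endothelial, 2 of 8 myeloid and 0 of 3 natural killer markers. Nothing is read from the sums, and the part of any list in the results was not tested.

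Cym, which encodes chymosin, an aspartic protease of the stomach that clots milk in young mammals, differed most in fold. Its single probe set, 1457271_at, had intensities of 187 and 220 in Lef1F/F MigR1-Cre arrays, against 682 and 795 in Lef1F/F MigR1 arrays. It read 344 and 349.5 in E2a-/- MigR1-Cre arrays and 354 and 431 in E2a-/- MigR1 arrays. The floxed arrays with Cre were therefore below all 4 arrays of the E2a-/- line, and those without it were above them. The log2 difference with Cre was -1.86 ± 0.12 (SE, n = 2 arrays a group) in the Lef1F/F line, a 3.63-fold lower value. In RNA from sorted cells in bulk, fewer cells with a transcript and less of it per cell cannot be told apart. Tceal1, of the family of X-linked genes named for their likeness to transcription elongation factor A, had, at 1424634_at, 144 and 139 in Lef1F/F MigR1-Cre and 388 and 314 in Lef1F/F MigR1 arrays, a difference of -1.31 ± 0.10. In the E2a-/- line it was between 49.9 and 59.2 on all 4 arrays, under the median of the table. For 2810459M11Rik the 2 arrays of each floxed group were nearly the same, 270.5 and 270.7 with MigR1-Cre against 637 and 642 with MigR1 (-1.24 ± 0.08), and the 4 E2a-/- arrays lay between 105 and 126. Both genes stayed above every E2a-/- array after Cre.

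Promoter sequence was taken from RefSeq tables of GRCm38.p6, which matched 7 of the 10 genes with 8 start sites; Cd52, Rab44 and 2810459M11Rik had no entry. The 250 bases before each start were searched on both strands for the TCF/LEF motifs CTTTGAA and CTTTGAT, to which CTTTGTA and CTTTGTT were added after the first search, and for the E-boxes CAGCTG, which reads alike on both strands, and CAGGTG, which E proteins can bind. No motif overlaps another in these windows. CTTTGAA and CTTTGAT were each in 0 of 8 windows, against 4.46% and 3.21% of 32851 windows of all genes. With the motifs added later, any of the 4 was in 2 of 8, against 14.8%, and an E-box was in 2 of 8, against 27.7%. Windows are shown for 4 starts because they carry these matches or, for Fgfbp1, because it is the gene of opposite direction with an entry. Capitals mark a motif match, and the last base is the one before the start.
Cym, chr3:107221733-107221982, strand -: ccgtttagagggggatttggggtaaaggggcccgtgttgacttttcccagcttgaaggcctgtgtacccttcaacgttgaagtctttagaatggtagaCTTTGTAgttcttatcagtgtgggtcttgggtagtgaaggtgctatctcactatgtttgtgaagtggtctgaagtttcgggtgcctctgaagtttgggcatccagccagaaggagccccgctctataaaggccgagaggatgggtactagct
Tceal1, chrX:136707732-136707981, strand +: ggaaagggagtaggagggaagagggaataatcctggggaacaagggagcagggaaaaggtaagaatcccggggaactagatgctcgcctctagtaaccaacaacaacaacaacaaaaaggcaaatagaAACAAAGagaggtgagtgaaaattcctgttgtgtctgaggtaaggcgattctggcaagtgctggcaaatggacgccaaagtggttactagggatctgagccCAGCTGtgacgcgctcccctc
Cntnap2, second start, chr6:47244146-47244395, strand +: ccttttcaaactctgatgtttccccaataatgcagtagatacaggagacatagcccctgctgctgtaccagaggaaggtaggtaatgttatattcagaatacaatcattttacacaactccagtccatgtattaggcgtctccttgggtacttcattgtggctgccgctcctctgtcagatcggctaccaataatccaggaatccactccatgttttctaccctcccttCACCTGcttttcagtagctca
Fgfbp1, chr5:43981800-43982049, strand -: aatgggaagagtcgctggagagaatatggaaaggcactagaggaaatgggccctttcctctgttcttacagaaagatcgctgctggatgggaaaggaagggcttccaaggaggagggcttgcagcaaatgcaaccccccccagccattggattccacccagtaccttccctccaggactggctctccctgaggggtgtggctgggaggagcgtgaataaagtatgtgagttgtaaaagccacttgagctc
In the Cym window CTTTGTA lay 152 to 146 bases before the start, a motif in 3.2% of all windows. In the Tceal1 window CTTTGTT was on the other strand, printed as AACAAAG, 122 to 116 bases before the start (5.03% of windows), and CAGCTG 21 to 16 bases before it (13% of windows). The second Cntnap2 start had CAGGTG on the other strand, printed as CACCTG, also 21 to 16 bases before it (17.2% of windows). The windows of Cd53, Prmt7, Mbnl2, Fgfbp1 and the first Cntnap2 start held 0 matches. A match is a string of letters and was not tested for binding.

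**Figure D1:**
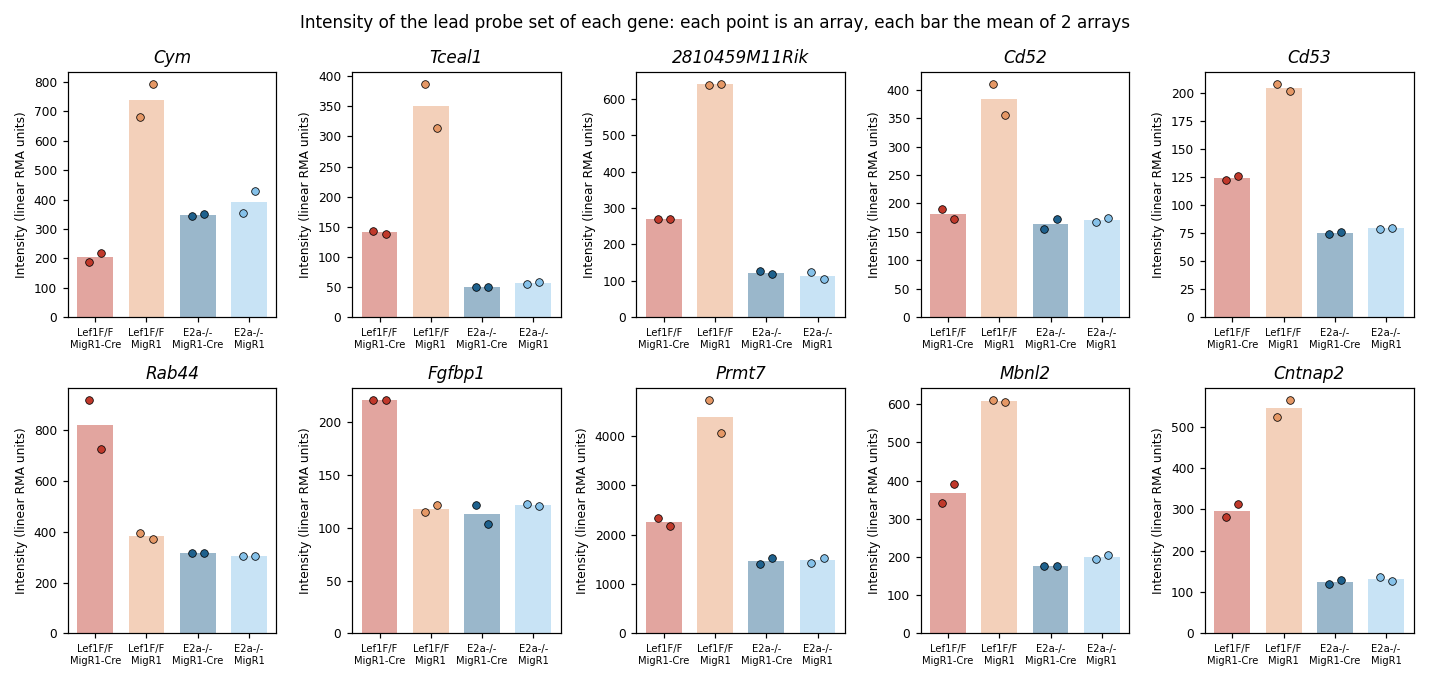
Intensity of the probe set with the largest difference in each of the 10 genes (linear RMA units, each vertical axis starting at 0) by group; points are arrays and bars are means of 2 arrays. In 8 panels the Lef1F/F MigR1 arrays are the highest, for Cym 682 and 795, and in Rab44 and Fgfbp1 the Lef1F/F MigR1-Cre arrays are.

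The leukocyte surface genes Cd52 and Cd53 were lower with Cre in the floxed line but ended at different places relative to the other line. Cd52 encodes a very short glycoprotein held on lymphocytes by a GPI anchor, and Cd53 a tetraspanin, a protein that crosses the membrane 4 times and organises other surface proteins of leukocytes. Cd52 had 190 and 173 in Lef1F/F MigR1-Cre and 411 and 355 in Lef1F/F MigR1 arrays (-1.08 ± 0.09), and 155 to 175 in the 4 E2a-/- arrays. With Cre it was thus within or just above the range of the E2a-/- line. The brighter Cd53 probe set had 122 and 126 in Lef1F/F MigR1-Cre and 209 and 202 in Lef1F/F MigR1 arrays (-0.72 ± 0.06), against 74.0 to 79.8 in the E2a-/- line. Its other probe set was dim on every array, at 47.6 to 51.9, and gave -0.05 ± 0.06.

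Cntnap2, known in neurons as Caspr2, a neurexin-like surface protein that gathers potassium channels along myelinated axons, was read by 3 probe sets. The brightest had 281 and 313 in Lef1F/F MigR1-Cre and 524 and 565 in Lef1F/F MigR1 arrays (-0.88 ± 0.08), against 120 to 136 in the E2a-/- line. A second probe set had 72.4 and 71.9 in Lef1F/F MigR1-Cre and 96.0 and 83.5 in Lef1F/F MigR1 arrays (-0.31 ± 0.08). The third went the other way by a small amount, 77.0 and 67.7 with MigR1-Cre against 70.3 and 67.3 with MigR1 (0.07 ± 0.07), with overlapping arrays. Both of these probe sets were near or under the median of the table, where RMA compresses differences.

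Prmt7, an enzyme that places a single methyl group on arginines, and Mbnl2, a muscleblind RNA binding protein that steers alternative splicing, had several probe sets each. For Prmt7 the bright probe set had 2338 and 2171 in Lef1F/F MigR1-Cre and 4726 and 4047 in Lef1F/F MigR1 arrays (-0.96 ± 0.09, 1.94-fold lower), against 1408 to 1520 in the E2a-/- line. The other 2 Prmt7 probe sets were dim, at 77.3 to 100.1 and 48.0 to 60.0 over the 8 arrays, and gave -0.12 ± 0.11 and -0.09 ± 0.09. Mbnl2 had 5 probe sets, and the 3 brightest moved by similar amounts. Probe set 1436858_at had 341.6 and 391.6 in Lef1F/F MigR1-Cre and 611 and 606 in Lef1F/F MigR1 arrays (-0.73 ± 0.08), and 177 to 205 in the E2a-/- line. Probe set 1433754_at had 1618 and 1731 with MigR1-Cre and 2742 and 2412 with MigR1 in the Lef1F/F line (-0.62 ± 0.08). Probe set 1455827_at had 1636 and 1347 with MigR1-Cre and 2793 and 2128 with MigR1 there (-0.72 ± 0.15), with the widest gaps between replicates among these 3. Of the other pair, 1457477_at gave -0.33 ± 0.17 with overlapping arrays and 1457237_at gave -0.09 ± 0.07 at 93.7 to 107 in all 8 arrays.

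**Figure D2:**
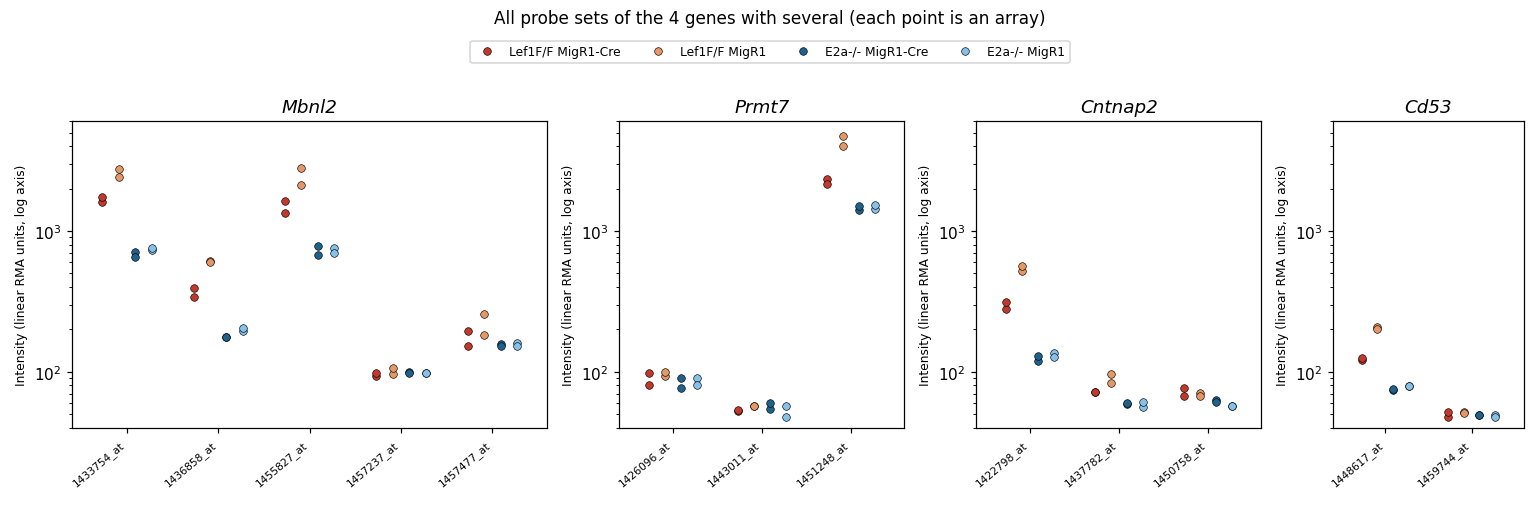
Intensity (linear RMA units on a log axis) of every probe set of Mbnl2, Prmt7, Cntnap2 and Cd53; each point is an array, coloured by group. The widest gaps between Lef1F/F MigR1-Cre and Lef1F/F MigR1 arrays are at 3 Mbnl2 probe sets and 1 of each other gene, while the arrays of the dim Cd53 probe set all lie at 47.6 to 51.9.

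Rab44 and Fgfbp1 were higher with Cre. Rab44 is a large Rab GTPase of blood cells, a class that controls vesicle traffic, and Fgfbp1 a secreted carrier that frees fibroblast growth factors from the matrix. Rab44 had 918 and 723 in Lef1F/F MigR1-Cre and 395 and 373 in Lef1F/F MigR1 arrays (1.09 ± 0.10, 2.12-fold higher), against 304 to 318 in the 4 E2a-/- arrays. Fgfbp1 had 221 and 221 in Lef1F/F MigR1-Cre and 115 and 121 in Lef1F/F MigR1 arrays (0.91 ± 0.08). In the E2a-/- line it had 122 and 104 with MigR1-Cre and 123 and 121 with MigR1, around the values of the floxed line without Cre.

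Set within the whole table, 11 of the 19 probe sets were called with Cre in the floxed line (limma, adjusted p under 0.05), 9 lower and 2 higher, where 0.167% of all 45037 probe sets passed, 0.127% lower and 0.04% higher. The 11 hold the probe set with the largest difference of each of the 10 genes and 1433754_at of Mbnl2. Both MigR1-Cre arrays were below both MigR1 arrays at 12 of the 19, where 13.7% of the table was, and above them at 2, where 15.4% was. These counts follow from the choice and carry no weight of their own. With only the 4 arrays of the floxed line in the fit, 0 of the 19 and 0 of all probe sets passed, and leaving out single arrays left 6 to 8 of the 19.

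The E2a-/- line gave a comparison that the choice did not use. Its question is whether the 10 genes differ with Cre where Lef1 has no loxP sites, if the titles give the vector rightly. With limma, 0 of the 19 probe sets passed an adjusted p of 0.05, as did 0 of all 45037 (0%). At an unadjusted p under 0.05 there was 1 of the 19, Mbnl2 1436858_at (178 and 177 with MigR1-Cre, 195 and 205 with MigR1, -0.17 ± 0.08, limma adjusted p = 1), where 1.86% of the table lay under that value. Log2 differences over the 19 were between -0.18 and 0.13 with a median of -0.01, against a median of 0.00 over the table, and their median size was 0.07, against 0.05. For the probe set with the largest difference in each gene, the median was -0.075 and the median size 0.09. Both MigR1-Cre arrays were below both MigR1 arrays at 5 of the 19 probe sets, where 15.2% of the table was, and above them at 2 of 19, where 16.2% was.

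A p above the threshold does not show that Cre left these genes unaltered, and the intervals give the sizes that remain possible. For the probe set with the largest difference in each gene, 95% intervals of the difference in the E2a-/- line reached from -0.45 at the lowest to 0.29 at the highest, with a spread estimated over all 8 arrays. Cym gave -0.17 (95% interval -0.45 to 0.10) and Tceal1 gave -0.18 (-0.41 to 0.04), and Tceal1 lay under the median intensity there. 2810459M11Rik gave 0.10 (-0.09 to 0.28), Rab44 0.06 (-0.18 to 0.29) and Fgfbp1 -0.12 (-0.30 to 0.07). For Cd52 it was -0.07 (-0.28 to 0.15), for Cd53 -0.08 (-0.21 to 0.05) and for Prmt7 -0.01 (-0.22 to 0.19). Cntnap2 gave -0.07 (-0.26 to 0.12). The interval of Mbnl2, -0.17 (-0.35 to -0.0006), was the only one of these that left out 0, without adjustment for the number of probe sets. The difference of the Cre effects between the lines, Lef1F/F minus E2a-/-, contains the comparison the genes were chosen on and was not tested. It was -1.69 ± 0.17 for Cym, -1.34 ± 0.11 for 2810459M11Rik, -1.12 ± 0.14 for Tceal1, 1.03 ± 0.15 for Rab44 and 1.02 ± 0.12 for Fgfbp1. For Cd52, Prmt7, Cntnap2, Cd53 and Mbnl2 it was -1.01 ± 0.13, -0.94 ± 0.13, -0.81 ± 0.11, -0.64 ± 0.08 and -0.56 ± 0.11.

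**Figure D3:**
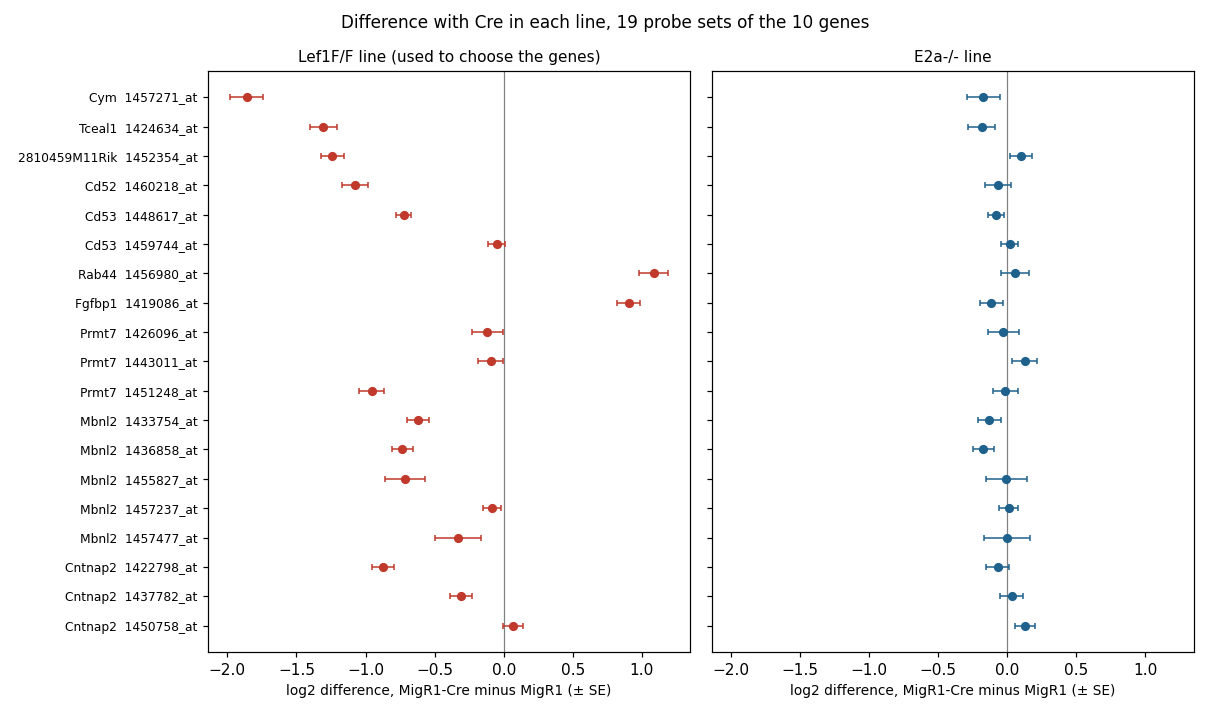
Log2 difference of MigR1-Cre minus MigR1 (± SE) at 19 probe sets, in the Lef1F/F line on the left and in the E2a-/- line on the right, on the same horizontal axis. Values spread from -1.86 to 1.09 in the Lef1F/F line, on which the genes were chosen, and stay between -0.18 and 0.13 in the E2a-/- line.

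The level of most of these genes was higher in the Lef1F/F line than in the E2a-/- line when both vectors were averaged. This is a description, because it rests on the Lef1F/F arrays on which the genes were chosen, a gene could be seen to fall there only where it stood above background, and the mean still holds part of the Cre effect. Of the 19 probe sets, 13 passed in the fit over the table, all 13 higher in the Lef1F/F line, where 9.71% of the table passed higher and 10.8% lower, and nothing is read from that count. Tceal1 had the largest difference, 2.05 ± 0.07 on the log2 scale, or 4.15-fold. It was followed by 2810459M11Rik (1.82 ± 0.06), Cntnap2 (1.65 ± 0.06), Mbnl2 (1.33 ± 0.05), Prmt7 (1.10 ± 0.06) and Cd53 (1.05 ± 0.04). Rab44, Cd52 and Fgfbp1 gave 0.85 ± 0.07, 0.65 ± 0.07 and 0.46 ± 0.06, and Cym gave 0.07 ± 0.09. Of the other probe sets, Mbnl2 1433754_at and 1455827_at gave 1.54 ± 0.06 and 1.39 ± 0.10, Cntnap2 1437782_at and 1450758_at gave 0.44 ± 0.06 and 0.24 ± 0.05, and the other 5, of Cd53, Prmt7 and Mbnl2, gave 0.00 to 0.30.

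Some markers also differed between the lines. Of the 10 measured T cell markers, limma called 6 higher in the Lef1F/F line, among them Cd3g (0.58) and Bcl11b (0.35). Their summed intensity was 32070 to 37890 in Lef1F/F MigR1-Cre and 30720 to 35800 in Lef1F/F MigR1 arrays, against 28170 to 28300 in E2a-/- MigR1-Cre and 27880 to 28440 in E2a-/- MigR1 arrays. Of the 34 markers of other cell types, 2 were called higher and 1 lower. Among the brightest probe sets of all named genes, the measure used for the markers, 12.9% were called higher and 12.1% lower. Nothing is read from the count for other cell types. Cdh1, an epithelial adhesion protein, had means of 116 in Lef1F/F MigR1-Cre and 138.5 in Lef1F/F MigR1 arrays, against 54.2 in E2a-/- MigR1-Cre and 55.7 in E2a-/- MigR1 arrays (1.21, limma adjusted p = 3.61e-06). Pdgfrb gave 0.45 (limma adjusted p = 0.00585) and Klf1, an erythroid factor, gave -0.19 (limma adjusted p = 0.0191). The part of these markers in the line differences was not tested.

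The mean over both vectors hides that the order of the lines differed by vector for some genes. In MigR1-Cre arrays alone the Lef1F/F line was lower for Cym (-0.77), close for Cd52 (0.15) and higher for the other 8 genes (0.62 to 1.49). In MigR1 arrays alone it was higher for 9 genes (0.33 for Rab44 to 2.61 for Tceal1), and Fgfbp1 gave -0.05. Of the 8 genes that were lower with Cre, 8 had both Lef1F/F MigR1 arrays above all 4 E2a-/- arrays. After MigR1-Cre, 6 of these 8 still had both arrays above all 4 E2a-/- arrays, Cym had both below, and Cd52 overlapped. The share of the table with these orders was not counted, and the genes were chosen on the Lef1F/F arrays. Nothing is read from either count. Lef1 itself showed the order of Cym, with the brighter probe set at -0.84 in MigR1-Cre arrays and 0.97 in MigR1 arrays. All 4 Lef1F/F arrays were above all 4 E2a-/- arrays at 11 of the 19 probe sets, where 11.5% of the table was, and below them at 0, where 13.6% was.

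**Figure D4:**
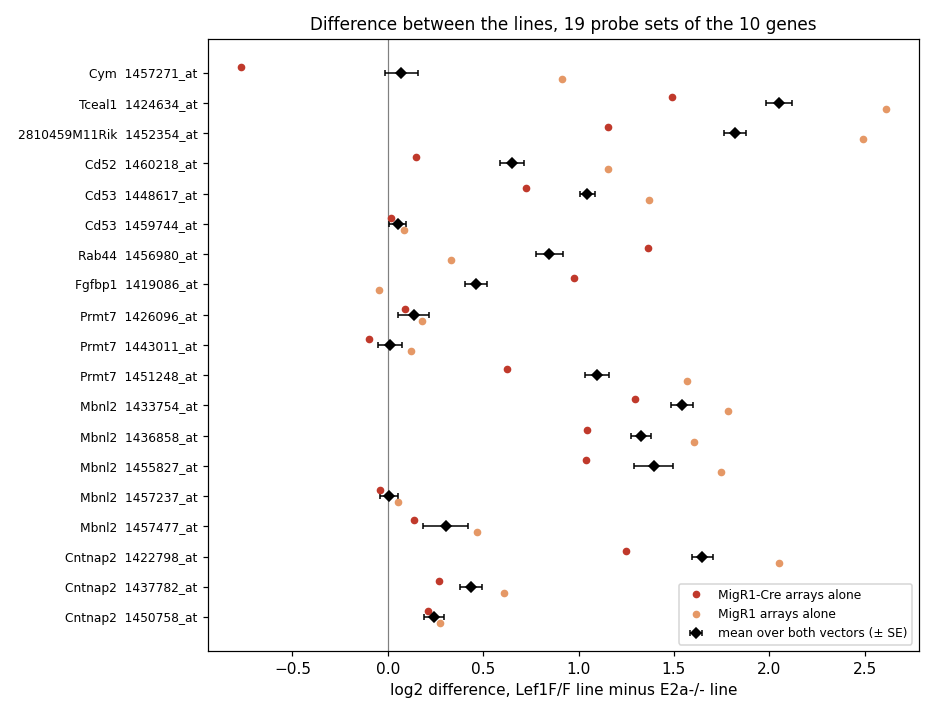
Log2 difference of the Lef1F/F line minus the E2a-/- line at 19 probe sets, as the mean over both vectors (black, ± SE), in MigR1-Cre arrays alone (red) and in MigR1 arrays alone (orange). Tceal1 has the largest mean difference, 2.05, and the Cym points lie on either side of 0 at -0.77 and 0.92.

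Relatives of the 10 genes, taken by family but with earlier results of these data known, were followed next. Of 95 listed, 85 were measured, each at its brightest probe set. With Cre in the Lef1F/F line, limma called 0 of the 85, where 0.066% of the brightest probe sets of all 18193 named genes were called higher and 0.22% lower. Their differences ran from -0.70 to 0.25 with a median of -0.01, against a median of 0.00 over all named genes. The lowest was Cd160, a GPI-anchored receptor in the list for Cd52, at -0.70 with adjusted p = 0.0776. In the E2a-/- line 0 of the 85 were called as well, between -0.19 and 0.15, where 0% of all named genes were called.

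Between the lines, 22 relatives were called higher in the Lef1F/F line and 11 lower, where 12.9% and 12.1% of named genes were. Among tetraspanins, the family of Cd53, 10 of 20 were higher and 4 lower. Cd82, which restrains cell movement, had means of 1144 in Lef1F/F MigR1-Cre and 1454 in Lef1F/F MigR1 arrays, against 222 in E2a-/- MigR1-Cre and 232 in E2a-/- MigR1 arrays (2.51, limma adjusted p = 9.03e-07). Tspan13 gave 1.00 and Cd151, a partner of integrins, gave -0.73. In the Tceal and Bex family, next to Tceal1 in kind, 4 of 8 were higher and 1 lower, led by Tceal8 (2.05, limma adjusted p = 1.39e-06). Its means were 329.5 in Lef1F/F MigR1-Cre and 427 in Lef1F/F MigR1 arrays, against 88.4 in E2a-/- MigR1-Cre and 93.6 in E2a-/- MigR1 arrays. Bex6 and Bex3 were next in size, at 0.63 and 0.45. With Cre in the Lef1F/F line Tceal8 gave -0.37 (limma adjusted p = 0.755).

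Aspartic proteases went both ways, with log2 differences of 1.36 for Ctse, an endosomal protease, -0.66 for the lysosomal protease Ctsd and -1.15 for the secretase Bace1. In the list of splicing regulators Mbnl3 and Rbfox2 were higher (0.66 and 1.34) and the other 6 of 8 were not called. Of arginine methyltransferases and their partners, Wdr77, Prmt3 and Prmt1 were lower (-0.38, -0.33 and -0.20) and Prmt9 was higher (0.13). Rab27a, a Rab of secretory granules, gave 1.99 and Rab37 gave 0.19. The carrier Fgfbp3 gave 0.54 and the receptor Fgfr1 gave -0.53. Cd24a, a GPI-anchored protein of immature lymphocytes, gave 0.71, and 0 of 9 contactin and Cntnap relatives were called.

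**Figure D5:**
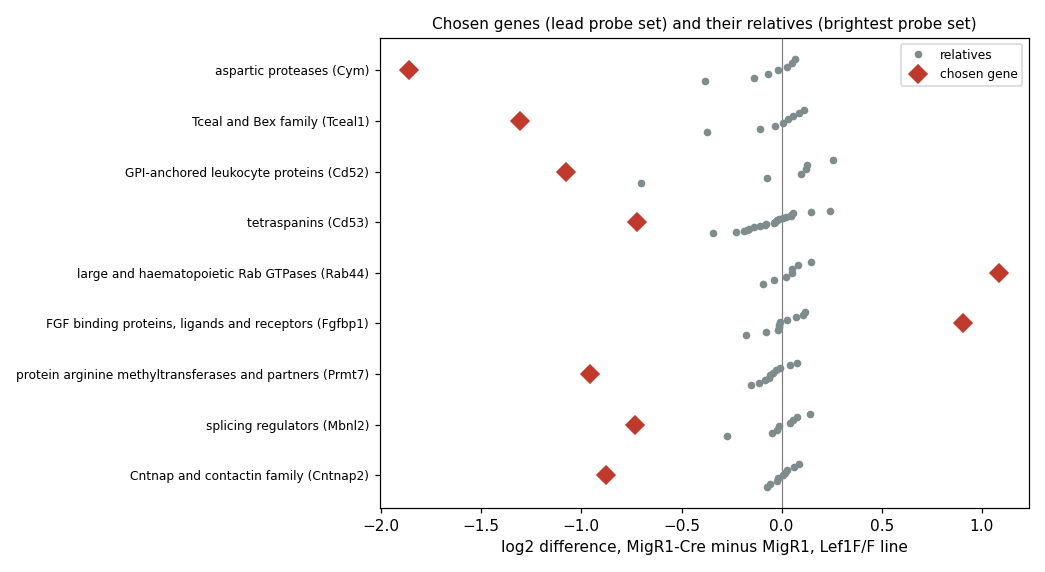
Log2 difference of MigR1-Cre minus MigR1 in the Lef1F/F line for the 9 chosen genes with listed relatives (red diamonds, probe set with the largest difference) and for 85 relatives (grey points, brightest probe set). The relatives lie between -0.70 and 0.25, and the chosen genes, picked on this axis, lie outside that range at the probe sets plotted. The probe sets were picked differently for genes and relatives, and the brightest of Mbnl2, 1433754_at, gave -0.62, inside the range.

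Other genes followed the 10 closely over the 8 arrays. Likeness was measured as Pearson's r of log2 intensity with the probe set of largest difference. The search took probe sets of named genes that ranged by at least 1 log2 unit. The 10 genes and Lef1 were left out of it, so the genes named are the nearest of the rest. Likeness is a description without a test, since arrays share lines and vectors. Tceal1 was most like Id3 (r = 0.9950), an inhibitor of E protein binding, and Glrx (r = 0.9948). 2810459M11Rik and Cd53 both ran close to Icos, a costimulatory receptor (r = 0.9962 for each), Cd53 also to Rtp4 (r = 0.9974) and 2810459M11Rik to Ripor2 (r = 0.9956). Prmt7 was most like Egr1 (r = 0.9929) and Syk (r = 0.9928), and Cd52 like Ptpn22 (r = 0.9730) and Cadm4 (r = 0.9630). Cntnap2 and Mbnl2 shared Tktl1 among their nearest genes (r = 0.9976 and 0.9946), beside Dixdc1 for Cntnap2 (r = 0.9981) and Glrx for Mbnl2 (r = 0.9951). Cym had the genes Hemgn (r = 0.9305) and Mecom (r = 0.9069). The nearest genes of Rab44 and Fgfbp1 were further off, with Ccdc153 in both pairs (r = 0.9406 and 0.8852), beside Ptprf for Rab44 (r = 0.9200) and Pcmtd1 for Fgfbp1 (r = 0.9274). Most of these values rest on the gap between the lines, which sets 4 arrays against 4.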

How the data were processed

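Total RNA of GFP+ sorted cells was hybridised to 8 Affymetrix whole-genome mouse arrays. RMAExpress (version not given in the sources used here) served the authors for RMA, and they deposited the intensity of each probe set on a linear scale, between 35.3 and 25588 units, without pooling. RMA makes array distributions alike, which hides any change in a cell's total RNA. Groups came from the sample titles, and arrays were numbered 1 and 2 in record order. Gene symbols came from the platform annotation, which gave 1 symbol to 34945 of 45037 probe sets, several to 932 and none to 9160. All 10 genes matched the GRCm38.p6 annotation by gene identifier.

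Group means of log2 intensity, with no offset, were fitted to all 8 arrays with limma 3.58.1 in R 4.3.3 (4 residual and 3.99 prior degrees of freedom), with two-sided p-values, Benjamini-Hochberg adjustment across 45037 probe sets and a threshold of 0.05. These p-values take in no more than the scatter among the arrays, which may be technical. The fit was tested on simulated data. The 10 genes and the lists were chosen with earlier results of these data known. All probe sets of the 10 genes are described, with the 2 nearest genes of each gene. Of each list of relatives, up to 3 called genes a contrast are named by size. The nearest genes were sought with the 10 genes and Lef1 left out. Cd160 and Prmt9 were named after their values were seen. Alternatives were moderation with trend and robust settings, a fit on 1 line's arrays only, a filter that drops probe sets under the 40th percentile, a block for paired Lef1F/F arrays, array weights, repeated quantile normalisation, a threshold of 0.01, single vectors and leaving out each array. The dChip comparisons that the study made were left aside.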

Additional observations from a re-analysis of the deposited data

How the results depend on the processing

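Over the table, the 75 probe sets called with Cre in the Lef1F/F line became 345 with a replicate block for paired Lef1F/F arrays, 46 with array weights, 27 at a threshold of 0.01, 0 with only the arrays of the line and 20 to 33 when single arrays were left out. Of the 19 probe sets of the 10 genes, 11 were called there, 0 with only the arrays of the line and 6 to 8 when single arrays were left out. In the E2a-/- line the count of 0 became 1, none of the 10 genes, with only the arrays of the line or with the block. The line difference had 9219 calls, 13830 with the block, 5448 at a threshold of 0.01, 4829 in MigR1 arrays alone, 5403 in MigR1-Cre arrays alone (a setting added after the data were seen) and 6070 to 10091 without single arrays, with 12 to 14 of the 19 in that last setting.

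The labels give no replicate numbers. The pairs behind the block are read from the arrays (first MigR1-Cre with first MigR1 array, r = 0.9975, and the same for the second, against 0.9943 and 0.9945 within a vector) and are a hint, not part of the design. The line difference of Cym was -0.772 in MigR1-Cre arrays alone (0.92 in MigR1 arrays alone), that of Prmt7 1443011_at -0.098 in MigR1-Cre arrays alone and that of Fgfbp1 -0.046 in MigR1 arrays alone. Without single arrays, the range crossed 0 at 11 of the 19 probe sets with Cre in the E2a-/- line, among them 2810459M11Rik (-0.012 to 0.207), Fgfbp1 (-0.233 to 0.002) and Prmt7 1443011_at (-0.001 to 0.255). In the line difference it crossed 0 at 2, Prmt7 1443011_at (-0.052 to 0.076) and Mbnl2 1457237_at (-0.032 to 0.042), and Cym came down to 0.00. With Cre in the Lef1F/F line it crossed 0 at none of the 10 probe sets of largest difference. Rab44 (0.33) missed the threshold in MigR1 arrays alone and Cd52 (0.15) and Cntnap2 1437782_at (0.27) in MigR1-Cre arrays alone, while Cntnap2 1450758_at missed it in both, at the threshold of 0.01, and without either E2a-/- MigR1 array or E2a-/- MigR1-Cre array 2. Mbnl2 1457477_at was called only with the block and without Lef1F/F MigR1 array 2, among the settings tried. The cause of these changes was not tested, beyond that fewer arrays enter. The number of arrays and the compression of dim values limit what can be seen.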
